A study of Mus musculus with 47 samples.

Results

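The RNA of 6 mouse genes, Pramel6, Pramel7, Pramel31, Tdpoz3, Gm8300 and Urml, was followed through the RNA-seq libraries of a study of thymine DNA glycosylase (TDG) and p53 across the cell cycle. They were taken by symbol as a group of Pramel, Tdpoz and other 2-cell-like genes, 6 of the 26182 genes in the tables of sorted cells. They had been picked with results of the sorted cells known, so their levels there, between siRNAs and between phases, are given as a description with no test. The tables of unsorted cells hold 24507 genes, among them 4 of the 6 by symbol. Pramel31 was found there as Gm13119, a synonym that RefSeq gives, and Urml was in none of these tables.

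All libraries came from E14Tg2A, a mouse embryonic stem cell (ESC) line grown without serum in N2B27 medium with LIF and the inhibitors PD0325901 and CHIR99021. Cells had received an siRNA against Tdg (siTdg) or a control siRNA (siC). The 20 libraries used form 10 groups of 2. They are siTdg and siC cells sorted into G2M and into G1, unsorted siTdg and siC cells at 48 h and at 96 h, and siTdg and siC embryoid bodies (EBs, clumps of differentiating ESCs) at day 11. For sorted cells the time after siRNA is not given in the sources used here. Libraries numbered 1 and 2 are not said to come from separate cultures, so p-values measure only the spread between these libraries.

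A small share of mouse ESCs passes in and out of a state that resembles the embryo at the 2-cell stage, in which genes of the first wave of embryonic transcription are switched on, among them the Zscan4 cluster, the Usp17l deubiquitinase genes and genes driven by the homeodomain factor DUX. Many of these genes lie in tandem arrays of near-identical copies. Pramel genes encode leucine-rich repeat proteins of the PRAME family, and several of them mark early embryos, the germ line or pluripotent cells. PRAMEL7 is known in mouse ESCs for directing UHRF1, the cofactor that recruits the maintenance methyltransferase DNMT1 to DNA, to degradation through a CUL2 ubiquitin ligase. TDG removes oxidised forms of 5-methylcytosine from DNA by base excision repair.

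Apart from Pramel6 and Pramel7, the genes lie on separate chromosomes. RefSeq places Pramel6 and Pramel7 next to each other on chromosome 2, Pramel31 on chromosome 4 beside Pramel30, Tdpoz3 on chromosome 3 beside Tdpoz4, Gm8300 on chromosome 12 and Urml on chromosome 13. Pramel6, Pramel7, Pramel31, Tdpoz3 and Gm8300 are annotated as protein-coding and Urml as a long non-coding RNA. Tdpoz3 encodes a protein with a TRAF-type domain and a BTB/POZ domain. No role is annotated for Gm8300 in the sources used here. How reads that match several copies were counted is not given in the sources used here, so the levels of these family members, Gm8300 above all, are uncertain between copies.

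Promoters are shown for 3 genes that cover both directions of phase difference in the sorted cells: Pramel6 (higher in G2M), Pramel31 (lower in G2M) and Urml (also lower in G2M, and nearest in profile to Dux). Each runs from 250 bases before to 50 bases after the start site in RefSeq on build GRCm38.p6, and capitals mark matches to the motifs searched, on both strands.
Pramel6, chr2:87506315-87506614, plus strand: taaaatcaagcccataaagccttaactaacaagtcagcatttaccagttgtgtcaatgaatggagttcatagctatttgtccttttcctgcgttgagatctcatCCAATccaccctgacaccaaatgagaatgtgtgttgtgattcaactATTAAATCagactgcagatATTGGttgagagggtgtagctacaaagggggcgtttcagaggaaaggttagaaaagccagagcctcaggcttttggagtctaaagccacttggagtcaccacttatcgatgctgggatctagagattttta
Pramel31, chr4:144357714-144358013, plus strand: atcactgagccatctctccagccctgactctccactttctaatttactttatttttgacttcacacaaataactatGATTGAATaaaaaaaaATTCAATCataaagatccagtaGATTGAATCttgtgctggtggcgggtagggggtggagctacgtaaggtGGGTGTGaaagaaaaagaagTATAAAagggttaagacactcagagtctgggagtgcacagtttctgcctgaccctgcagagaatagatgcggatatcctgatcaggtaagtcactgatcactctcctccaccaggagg
Urml, chr13:68234682-68234981, minus strand: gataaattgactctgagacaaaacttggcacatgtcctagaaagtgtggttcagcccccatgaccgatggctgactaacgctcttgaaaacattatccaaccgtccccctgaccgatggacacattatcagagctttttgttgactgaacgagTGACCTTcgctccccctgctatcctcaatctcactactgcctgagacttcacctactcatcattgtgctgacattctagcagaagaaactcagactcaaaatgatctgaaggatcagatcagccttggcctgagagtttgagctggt
The letters GATTNAAT resemble the core of the site known for mouse DUX. This motif was added after the promoters had been read. It occurs in 1.96% of the 32851 RefSeq promoters of this length. The Pramel6 promoter holds 1 match, which starts 100 bases before the start site. The Pramel31 promoter holds 4 matches, starting 174, 158, 136 and 135 bases before the start site, of which the last pair overlap as both strands of one stretch. At least 4 matches were found in 5 of all promoters. The Urml promoter and that of Pramel7, which lies at chr2:87492369-87492668 on the minus strand, hold none.

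Of the other motifs, TATAAA (in 13.6% of promoters) and GGGTGTG (in 7.95%) were found in Pramel31. CCAAT (in 37.4%) was found in 2 places in Pramel6, and AAGGTCA (in 4.72%) in Urml. The E-box of MAX (CACGTG) matched none of the 4 promoters searched, and neither did the E2F-type letters GCGGGAA or the octamer-type letters ATGCAAA. All 4 fall below the median of 7 CpG, with 3 in Pramel6, 1 in Pramel7, 3 in Pramel31 and 6 in Urml. No binding or methylation data were read over these windows.

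Tdg itself was low in sorted siTdg cells. It was at 12.3 and 8.63 RPKM in siTdg and 61.6 and 63.1 RPKM in siC in G2M, and at 9.64 and 7.53 RPKM in siTdg and 54.8 and 59.6 RPKM in siC in G1. At 48 h it was at 7.34 and 13.2 RPKM with siTdg and 46.0 and 43.4 RPKM with siC. At 96 h the libraries labelled siTdg had 28.2 and 40.3 RPKM against 35.8 and 46.0 RPKM in siC. In EBs those labelled siTdg had 37.3 and 43.7 RPKM against 35.1 and 38.5 RPKM in siC. Levels overlapped between siRNAs at 96 h and in EBs. The sort was checked on 18 G2/M genes. In each siRNA G2M minus G1 was above 0 in 15 and below 0 in 3, which were Ccnb2, Cdc20 and Kif20a. Called higher in each siRNA were 5 (limma, adjusted p under 0.05): Top2a, Aurkb, Prc1, Ube2c and Kif11. Over all 12462 genes 0.169% were called in siTdg and 0.12% in siC. Top2a rose by 1.78 on the log2 scale in siTdg and 1.82 in siC (adjusted p = 0.0220 and 0.0167, limma). Reads recovered per library ranged from 20818174 to 41433232. In EBs the libraries numbered 1 and 2 stood apart, with 7 fibroblast markers summing to 6502 and 920 RPKM in siTdg and 4899 and 994 RPKM in siC.

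In sorted cells all 6 genes had both siTdg libraries above both siC libraries, in G2M and in G1. Of the 12462 genes fitted, 5.24% showed this in both phases, 14.5% in G2M and 11.6% in G1. As the genes were chosen from these libraries, the count is no evidence about them. Levels were low, between 0.458 and 18.8 RPKM. The median log2 difference of the 6 genes, siTdg minus siC on log2(RPKM + 0.5), was 0.70 in G2M and 0.71 in G1, against 0.01 and 0.00 over all genes fitted. In bulk RNA, more cells in which a gene is active and more RNA per cell cannot be told apart.

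Pramel6 had 4.91 and 5.57 RPKM in siTdg and 3.46 and 3.17 RPKM in siC in G2M. In G1 it had 4.29 and 4.21 RPKM in siTdg and 2.51 and 2.33 RPKM in siC. The siTdg means were 1.58 times those of siC in G2M and 1.75 times in G1, with log2 differences of 0.59 and 0.70 (SE 0.11, n = 2 each). Within each group the libraries were close, and the lowest siTdg value, in G1, lay above the highest siC value, in G2M.

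Pramel7, its neighbour on chromosome 2, had 1.77 and 2.16 RPKM in siTdg and 0.806 and 1.01 RPKM in siC in G2M. Its G1 values were 1.29 and 2.37 RPKM in siTdg and 0.967 and 0.923 RPKM in siC. The ratio of means was 2.16 in G2M and 1.94 in G1 (log2 differences 0.81 and 0.65, SE 0.23, n = 2 each). The G1 siTdg libraries lay far apart, and without the higher of them the G1 difference was 0.31.

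Pramel31 had 2.25 and 2.20 RPKM in siTdg and 1.12 and 1.07 RPKM in siC in G2M. G1 cells had 3.28 and 2.82 RPKM in siTdg and 2.01 and 1.49 RPKM in siC. The ratio of means was 2.03 in G2M and 1.74 in G1 (log2 differences 0.77 and 0.66, SE 0.15, n = 2 each). The G2M siTdg libraries lay just above the higher siC library of G1.

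Tdpoz3, the lowest of the 6, had 1.30 and 0.922 RPKM in siTdg and 0.611 and 0.458 RPKM in siC in G2M. The G1 libraries had 1.68 and 1.34 RPKM in siTdg and 0.710 and 0.590 RPKM in siC. The ratio of means was 2.08 in G2M and 2.32 in G1 (log2 differences 0.63 and 0.80, SE 0.17, n = 2 each). These rest on 74 reads in siTdg and 29 in siC in G2M, and on 85 and 49 in G1.

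Gm8300, the highest of the 6, had 11.4 and 9.28 RPKM in siTdg and 6.05 and 3.99 RPKM in siC in G2M. For G1 the values were 18.8 and 13.9 RPKM in siTdg and 12.1 and 6.52 RPKM in siC. The ratio of means was 2.06 in G2M and 1.76 in G1 (log2 differences 0.99 and 0.83, SE 0.32, n = 2 each). In each of these 4 groups the library numbered 2 was lower than that numbered 1, and without the lower siC library of G1 the G1 difference was 0.40.

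Urml, the non-coding RNA, had 1.40 and 1.52 RPKM in siTdg and 0.998 and 0.955 RPKM in siC in G2M. In G1 cells it stood at 2.27 and 2.23 RPKM in siTdg and 1.16 and 1.19 RPKM in siC. The ratio of means was 1.49 in G2M and 1.91 in G1 (log2 differences 0.41 and 0.72, SE 0.11, n = 2 each). Libraries of a group differed little. Its siTdg difference was smaller in G2M than in G1 by 0.31 (SE 0.15), and this was the largest such gap among the 6, where the others lay between -0.17 and 0.17.

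**Figure D1:**
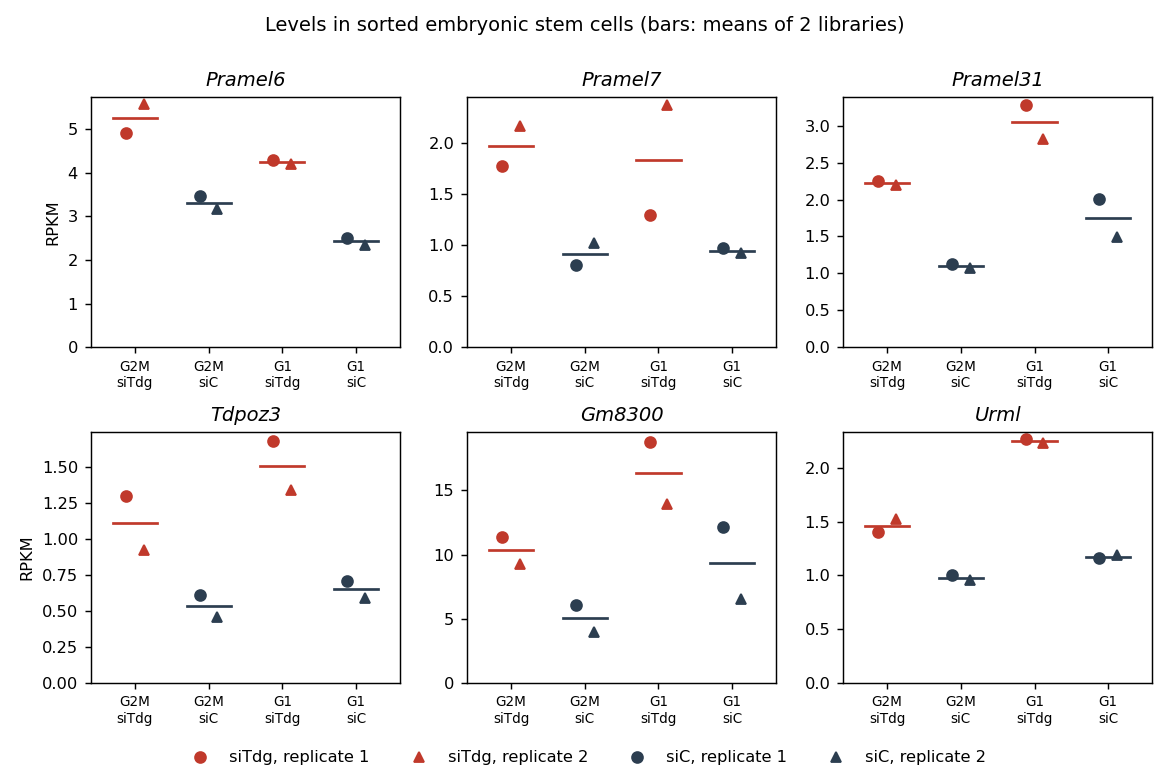
RPKM (y axis) of each of the 6 genes in the 8 libraries of sorted ESCs, grouped on the x axis by phase and siRNA; circles are replicate 1, triangles replicate 2, horizontal bars the mean of the 2 libraries. In every panel both siTdg libraries lie above both siC libraries of the same phase.

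The 6 genes did not share one phase pattern. Pramel6 was higher in G2M than in G1 with no overlap in either siRNA, by 0.27 on the log2 scale in siTdg and 0.38 in siC (SE 0.11). A difference at least as high was found for 11.6% of all genes fitted in siTdg and 3.59% in siC. Pramel31 was lower in G2M with differences, G2M minus G1, of -0.38 in siTdg and -0.49 in siC (SE 0.15). For Gm8300 the difference was -0.63 in siTdg and -0.80 in siC (SE 0.32). For Urml it was -0.49 in siTdg and -0.18 in siC (SE 0.11). These 3 had all G2M libraries below all G1 libraries of the same siRNA, as 8.39% of all genes fitted did.

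Tdpoz3 was lower in G2M in siTdg, with a difference of -0.32, and overlapped between phases in siC, at -0.15 (SE 0.17). Pramel7 overlapped between phases in both, at 0.12 in siTdg and -0.04 in siC (SE 0.23). In the fit across all genes 0.169% of 12462 genes were called between phases in siTdg and 0.12% in siC, at an adjusted p under 0.05 (limma).

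**Figure D2:**
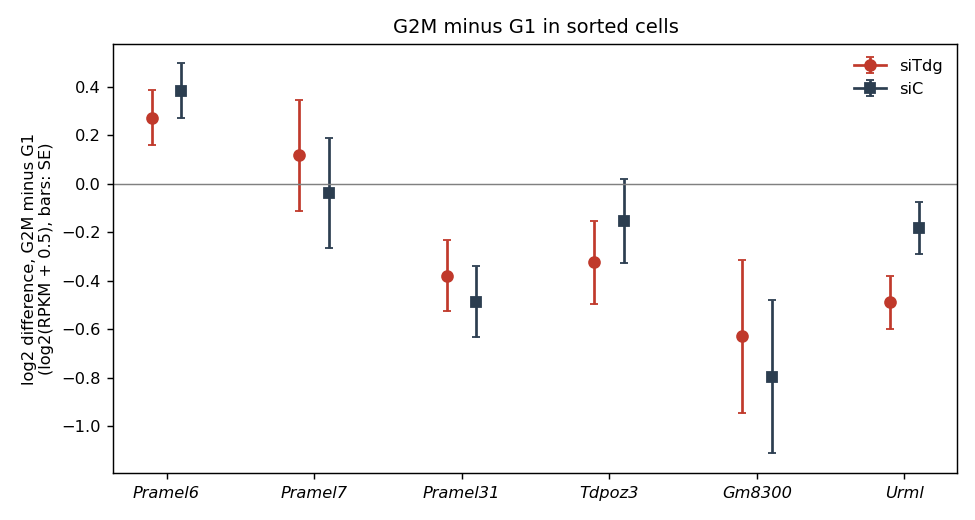
Difference in log2(RPKM + 0.5) between G2M and G1 (y axis) for each gene in siTdg (circles) and siC (squares), from the 2 libraries of each group; bars are standard errors. Pramel6 lies above 0 at 0.27 and 0.38, while Pramel31, Tdpoz3, Gm8300 and Urml lie below 0 in both siRNAs.

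One phase comparison used other libraries and a fraction labelled SG2M, not G2M, so it is not the same contrast. The authors' deposited table for SG2M against G1 at 0 h gives differences of SG2M minus G1 of -0.34 for Pramel6 (SE 0.158, adjusted p = 0.156), -0.25 for Pramel7 (SE 0.239, adjusted p = 0.588) and 0.37 for Gm8300 (SE 0.276, adjusted p = 0.447). None of the 3 passed 0.05 in the authors' deposited table, where 11.6% of 12790 genes with an adjusted p did. As signed here, the differences of Pramel6 and Gm8300 are opposite to those in the sorted siTdg and siC cells. The direction at 0 h was not checked against levels per library, as RPKM at 0 h were left out. The authors' deposited table lists no adjusted p for Pramel31 and Tdpoz3, whose mean normalised counts there were 6.94 and 0.474.

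The genes nearest in profile over the 8 sorted libraries differed between the 6. Nearness was the root mean square difference of log2(RPKM + 0.5) after each gene was centred on its own mean, over 12461 other genes. Pramel6 was nearest to Pramel30 (0.103), Pramel14 (0.118) and Gdf15 (0.133), where the median over genes was 0.392. Pramel30 had 9.51 and 11.5 RPKM in siTdg and 7.24 and 6.34 RPKM in siC in G2M, and 8.71 and 8.98 RPKM in siTdg and 6.51 and 5.55 RPKM in siC in G1. Like Pramel6, and unlike its chromosome 4 neighbour Pramel31, Pramel30 was not lower in G2M than in G1 in either siRNA.

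Pramel31 was nearest to Gm12790 (0.0833), Pramel44 (0.0957) and Tmem92 (0.0961). Tdpoz3 was nearest to Eif4a3l1 (0.0906), Gm6468 (0.122) and Pramel16 (0.153). Urml was nearest to Dux (0.0818), Pramel16 (0.0920) and Pramel39 (0.101). Dux, the gene of the homeodomain factor named above, had 0.62 and 0.70 RPKM in siTdg and 0.39 and 0.43 RPKM in siC in G2M. Levels in G1 were 1.41 and 1.18 RPKM in siTdg and 0.62 and 0.53 RPKM in siC.

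Gm8300 was nearest to Gm2016 (0.0530), Gm5662 (0.101) and BB287469 (0.108), where the median over genes was 0.670. Gm2016 had 14.2 and 12.8 RPKM in siTdg and 7.98 and 5.70 RPKM in siC in G2M. Its G1 levels were 25.3 and 18.2 RPKM in siTdg and 16.9 and 9.12 RPKM in siC. Pramel7 was nearest to Igfbp7 (0.145), Nccrp1 (0.149) and Tpm2 (0.161). Among the 6 themselves the nearest pair was Pramel31 and Tdpoz3 (0.156) and the farthest Pramel6 and Gm8300 (0.603).

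The tables of sorted cells hold 32 other Pramel genes and 7 other Tdpoz genes. Of these, 7 Pramel and 2 Tdpoz genes had no read in any sorted library, and 9, all Pramel, reached the mean of 0.5 RPKM needed for the fit. Of the 9, siTdg minus siC was above 0 in 7 in G2M (median 0.59) and in 8 in G1 (median 0.49), and none was called (limma, adjusted p under 0.05, as for 0.00802% of 12462 genes in each phase, which is Tdg alone).

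The family was not uniform. Pramel13, the highest at group means up to 40.2 RPKM, had 36.3 and 41.8 RPKM in siTdg and 34.9 and 39.1 RPKM in siC in G2M, and 34.3 and 46.0 RPKM in siTdg and 34.3 and 37.1 RPKM in siC in G1. Averaged over phases its log2 difference was 0.11 (SE 0.11). That of Pramel12 was -0.16 (SE 0.15) and that of Pramel1 -0.01 (SE 0.13). By contrast Pramel19 stood at 0.82 (SE 0.18), Pramel16 at 0.63 (SE 0.08) and Pramel14 at 0.55 (SE 0.09), all with siTdg libraries above siC libraries in both phases. Pramel44 had 2.42 and 2.48 RPKM in siTdg and 1.55 and 1.09 RPKM in siC in G2M, and 3.51 and 3.20 RPKM in siTdg and 2.36 and 1.90 RPKM in siC in G1. Among the other Tdpoz genes the highest group means were those of Tdpoz4 (0.466 RPKM) and Tdpoz8 (0.460 RPKM), both in siTdg cells in G1.

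Other genes of the 2-cell-like state, from a list of 57 entries, were also mostly higher in siTdg libraries of sorted cells. The tables of sorted cells held 42 of them and 23 were high enough for the fit. Of these 23, siTdg minus siC was above 0 in all 23 in G2M (median 0.67) and in 22 in G1 (median 0.69). Over all genes fitted it was above 0 in 54.6% and 50.2%, and none of the 23 was called. The list was drawn up with earlier results of these data known, so counts over it are given as a description. It also holds near-identical copies that may share reads, so the 23 are not separate observations. Zscan4f, of a gene cluster active in the 2-cell embryo, stood at 0.92 in G2M and 0.77 in G1 (SE 0.20 each, adjusted p = 1.00 and 0.916, limma). Usp17lb stood at 0.67 in both (SE 0.12). G2M minus G1 was below 0 in 22 of the 23 in each siRNA, with medians of -0.56 in siTdg and -0.54 in siC, and none was called. Pramel16 and Pramel19 are counted in this list and in the family.

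Regulators known to hold back or switch on this state had a median near 0. Over 22 of them (such as Dppa2, Trim28, Setdb1, Kdm1a and Chaf1a) the median of siTdg minus siC was -0.02 in G2M and 0.00 in G1, within -0.40 to 0.16, and none was called. The lowest, averaged over phases, were Lin28a, an RNA-binding protein, at -0.39 (SE 0.19, adjusted p = 0.838, limma) and Zmym2, a zinc finger protein, at -0.31 (SE 0.07, adjusted p = 0.494, limma). For 11 genes around the PRAMEL7 ligase and DNA methylation, the median averaged over phases was -0.10, within -0.47 to 0.11, with 7 of the 11 below 0. Uhrf1 stood at 0.06 (SE 0.07), Dnmt1 at -0.10 (SE 0.10) and Cul2 at -0.03 (SE 0.13). The de novo methyltransferases Dnmt3a and Dnmt3b stood at -0.17 (SE 0.09) and -0.32 (SE 0.07), and Tet1, which oxidises 5-methylcytosine, at -0.47 (SE 0.33). None of these 11 was called in either phase or averaged over phases.

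Markers of other cells were read as sums in sorted cells, over both phases. Summed over 7 genes, primitive endoderm markers were at 3.02 to 4.17 RPKM in siTdg and 2.81 to 4.05 RPKM in siC. Trophoblast markers summed to 21.6 to 30.4 RPKM in siTdg and 21.7 to 30.8 RPKM in siC, and fibroblast markers to 2.16 to 3.53 RPKM in siTdg and 1.87 to 3.21 RPKM in siC. Summed over 10 genes, markers of differentiated EBs were at 53.7 to 69.0 RPKM in siTdg and 53.2 to 73.6 RPKM in siC, with 2 to 4 of them at 0. The 10 ESC markers summed to 4024 to 5224 RPKM in siTdg and 3660 to 4120 RPKM in siC. Averaged over phases, siTdg minus siC was above 0 in 5 of these 10 and below 0 in 5 (median log2 difference 0.02). Any part of the marker differences in the levels of the 6 genes was not tested.

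**Figure D3:**
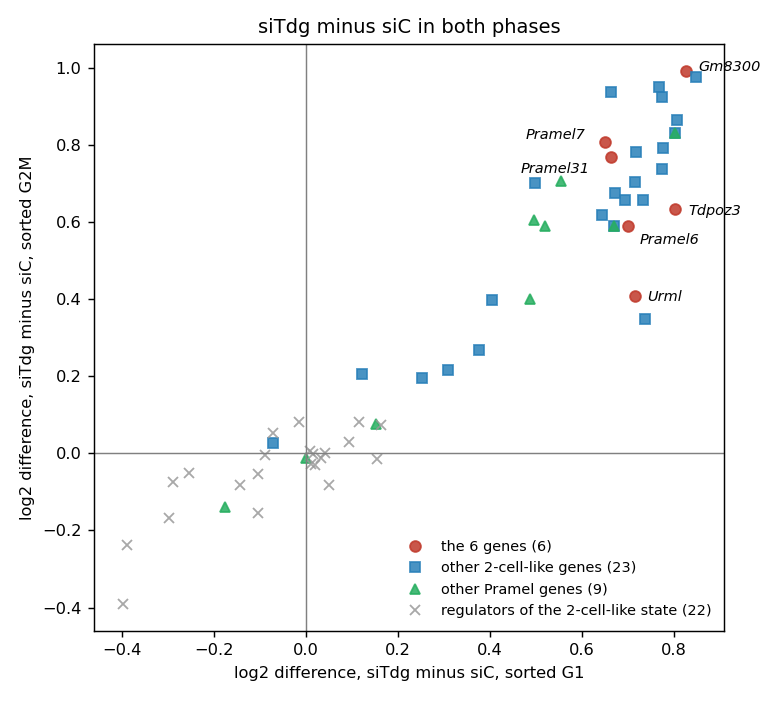
Difference in log2(RPKM + 0.5) between siTdg and siC in sorted G1 (x axis) and in sorted G2M (y axis), 1 point per gene, for the 6 genes, 23 other 2-cell-like genes, 9 other Pramel genes and 22 regulators. The 6 genes lie between 0.65 and 0.83 in G1 and between 0.41 and 0.99 in G2M, while the regulators lie between -0.40 and 0.16.

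Unsorted cells at 48 h and 96 h were not used to choose the genes, and here siTdg minus siC was tested. Pramel6, Pramel7 and Gm8300 passed the filter of a mean of 0.5 RPKM, and none was called at either time. Percent called was 0 of 12190 genes at both times (limma, adjusted p under 0.05), with 54 genes at an unadjusted p under 0.05 at 48 h and 11 at 96 h, and limma-voom, run on the reads, also gave 0. Tdg itself was not called at 48 h, at 0.230 times its siC mean (log2 difference -2.12, SE 0.31, adjusted p = 1.00, limma), so a miss in this test does not show that a gene was unaffected. The fit took no account of replicate numbers, so a difference shared by same-numbered libraries counted as spread. At 48 h the authors' deposited table called 1.35% of 8393 genes and at 96 h 0.144% of 6246, and it lists no adjusted p for the genes described here. In simulated data 55 of 100 genes changed 4-fold were called at 48 h and 20 of 100 changed 2-fold, among 12190 genes. The changed genes were drawn from higher levels, so genes near the filter were not among them.

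Pramel6 had 4.34 and 4.86 RPKM with siTdg and 4.96 and 5.74 RPKM with siC at 48 h, a log2 difference of -0.20 (SE 0.22, adjusted p = 1.00, limma). At 96 h the libraries labelled siTdg had 6.95 and 5.48 RPKM against 7.23 and 9.39 RPKM in siC, a difference of -0.39 (SE 0.22, adjusted p = 1.00). At both times the siTdg libraries lay below the siC libraries, as for 10.1% of genes at 48 h and 4.46% at 96 h, and the difference did not pass the test. Its gene model is 1540 bases at 48 h and 2077 bases in sorted cells, so these RPKM are not on one scale. The length used at 96 h was not established.

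Pramel7 had 0.151 and 0.923 RPKM with siTdg and 0.560 and 0.912 RPKM with siC at 48 h, a difference of -0.35 (SE 0.56, adjusted p = 1.00, limma). At 96 h the libraries labelled siTdg had 0.729 and 2.04 RPKM against 1.05 and 2.90 RPKM in siC, a difference of -0.38 (SE 0.56, adjusted p = 1.00). The groups overlapped at both times.

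Gm8300 had 0.564 and 4.24 RPKM with siTdg and 0.677 and 2.61 RPKM with siC at 48 h, a difference of 0.23 (SE 0.99, adjusted p = 1.00, limma). At 96 h the libraries labelled siTdg had 1.41 and 4.42 RPKM against 1.00 and 5.77 RPKM in siC, a difference of 0.00 (SE 0.99, adjusted p = 1.00). The spread within a group was larger than any difference between siRNAs.

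Pramel31, listed as Gm13119, had 0.136 and 1.21 RPKM with siTdg and 0.0680 and 0.410 RPKM with siC at 48 h. At 96 h the libraries labelled siTdg had 0.252 and 0.465 RPKM against 0.198 and 0.897 RPKM in siC. It was below the filter of the test run here. In the authors' deposited table its siTdg minus siC was 1.35 on the log2 scale (SE 0.761) at 48 h. At 96 h it was -0.36 there (SE 0.703), and neither value has an adjusted p. Tdpoz3 had at most 10 reads in any of these 8 libraries, with 1 and 10 reads under siTdg and 0 and 9 under siC at 48 h, and 3 and 7 under siTdg and 2 and 10 under siC at 96 h. Libraries of Pramel31 and of Tdpoz3 overlapped between siRNAs at both times.

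In unsorted cells the libraries of a group differed more for these genes than the siRNAs did, apart from Pramel6. In all 4 groups the library numbered 2 was above that numbered 1, by 3.13 to 7.52 times for Gm8300, 1.85 to 8.91 times for Pramel31 and 1.63 to 6.10 times for Pramel7. Tdpoz3 had more reads in number 2 in all 4 as well. Pramel6 varied less, by 0.788 to 1.30 times. In sorted cells Gm8300, Tdpoz3 and Pramel31 ran the other way, with number 2 below number 1 in all 4 groups. The summed 7 fibroblast markers were also higher in number 2 at 48 h, with 1.48 and 5.00 RPKM under siTdg and 1.48 and 4.18 RPKM under siC. Their part in the levels of these genes was not tested.

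**Figure D4:**
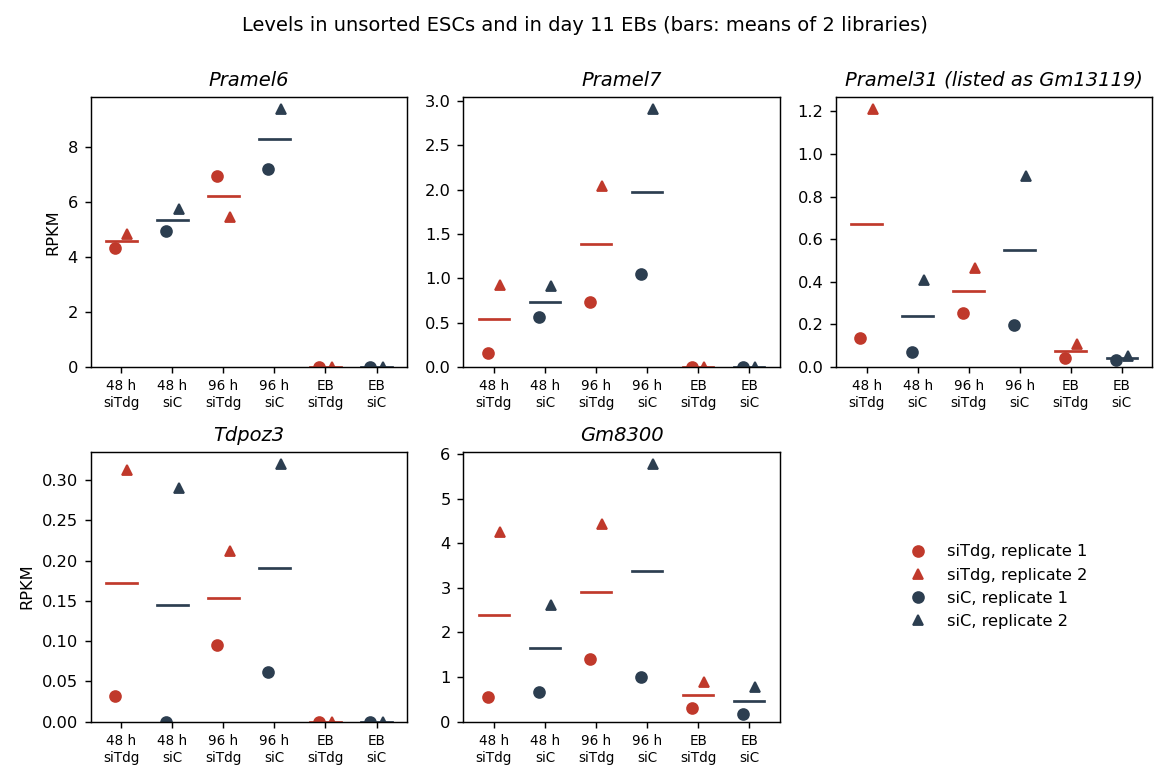
RPKM (y axis) in unsorted ESCs at 48 h and 96 h and in day 11 EBs, by siRNA (x axis), for the 5 genes these tables hold; circles are replicate 1, triangles replicate 2, horizontal bars the mean of the 2 libraries. In ESCs Pramel7, Pramel31, Tdpoz3 and Gm8300 have their higher value in replicate 2 in each group, and in EBs 3 of the 5 genes are at 0.

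**Figure D5:**
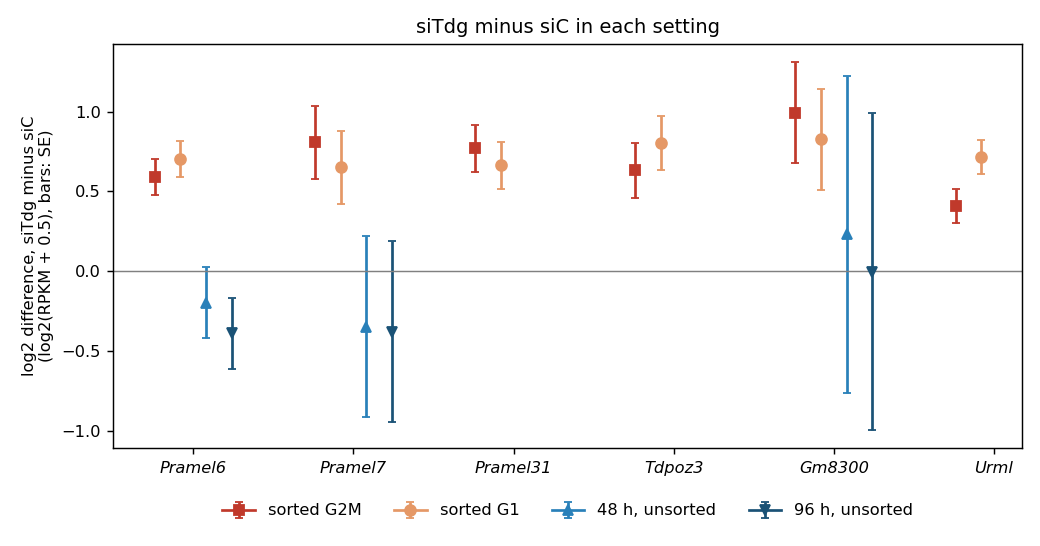
Difference in log2(RPKM + 0.5) between siTdg and siC (y axis) for each gene in sorted G2M, sorted G1 and unsorted cells at 48 h and 96 h; bars are standard errors, n = 2 libraries per group, and genes below the filter or not in a table have no point. Sorted values lie between 0.41 and 0.99, and unsorted values between -0.39 and 0.23.

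The other 2-cell-like genes were tested at 48 h and 96 h for 15 list members. At 48 h siTdg minus siC was above 0 in 13 of 15 with a median of 0.37, against 46.2% above 0 over all genes. At 96 h it was above 0 in 3 of 15 with a median of -0.18, against 51.3%. These counts too are a description, as the list was drawn up with earlier results known and holds near-identical copies. None was called at either time, and Zscan4f, for example, stood at 0.73 at 48 h and -0.29 at 96 h with an SE of 1.35. Of 5 other Pramel genes none was called either. Pramel14, near Pramel6 in profile in sorted cells and listed here as Pramef17, had 20.1 and 14.1 RPKM with siTdg and 18.5 and 14.4 RPKM with siC at 48 h.

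In day 11 EBs, transcripts of these genes were few. Pramel6, Pramel7 and Tdpoz3 had 0 reads in all 4 EB libraries, out of 122851573 reads together. A count of 0 allows up to 0.0724 to 0.144 RPM (reads for each 1e6 of a library's total) in a single library. Over the 8 unsorted ESC libraries Pramel6 had 6.64 to 14.3 RPM of each library's own total. Taking 3 counts over the EB libraries together as the floor, Pramel6 was at least 388-fold lower in EBs than its ESC mean. On the same basis Pramel7 was at least 88.1-fold lower and Tdpoz3 at least 7.49-fold lower, and Tdpoz3 had no read in 1 of the ESC libraries. ESC and EB tables were made separately, so no test was run between them.

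Pramel31 had 4 and 4 reads in EB libraries labelled siTdg and 3 and 2 in siC. Gm8300 stayed detectable, at 0.300 and 0.885 RPKM in those labelled siTdg and 0.168 and 0.772 RPKM in siC, a difference of 0.19 (SE 0.52, adjusted p = 1.00, limma). Percent called in EBs was 0 of 13300 genes, with 20 at an unadjusted p under 0.05, and simulated 4-fold changes were not called either (0 of 100 among 13300 genes). The fit in EBs took no account of replicate numbers either. The authors' deposited table called 0.0745% of 13424 genes in EBs. The ESC markers summed to 32.0 and 46.6 RPKM in EBs labelled siTdg and 31.4 and 117 RPKM in siC, against at least 4243 RPKM in each unsorted ESC library. Pramel12, listed as Pramef8, was the only other Pramel gene with a group mean above 1 RPKM in EBs, with 10.7 and 5.84 RPKM in those labelled siTdg and 9.54 and 5.50 RPKM in siC. Pramel13, listed as Pramef12, had 1.66 and 0.0898 RPKM in those labelled siTdg and 1.13 and 0.414 RPKM in siC.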

How the data were processed

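RNA-seq libraries were made with ribosomal RNA depletion and a stranded total RNA kit, per the labels' protocols. The submitters' processing notes name TopHat, Bowtie, DESeq2 and DiffBind and the builds mm9 and dm3. The authors deposited RPKM per gene, one table for each pair of groups, scaled separately. They also deposited log2 fold changes, standard errors (held as a score), p-values and adjusted p-values, with the mean normalised count as a signal value and, at 96 h, other columns with decimal commas; authors' signs at 0 h, 48 h and 96 h are turned here. RPKM at 0 h, in 4 columns that could be tied to no sample, were left out. Peak lists are on mm9, not the build of the annotation, and were not used.

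RPKM were turned back into reads and gene lengths. Whole reads, to a tolerance of 0.01, were obtained for 100% of positive values. Among the 8 sorted libraries the RPKM scale per recovered read agreed within 7.40%, so siTdg and siC were compared on deposited RPKM. The test between groups of 2 was limma 3.58.1 (R 4.3.3), two-sided, with a trended eBayes step and Benjamini-Hochberg adjustment over all genes. It was run on log2(RPKM + 0.5) where a gene averaged 0.5 RPKM or more. This scale understates changes of low genes. The script was tested on simulated data. The pseudocount, filter, scaling and trend were varied, limma-voom and a replicate block were tried, and each library was left out in turn.

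The 6 genes and all lists were chosen with earlier results of these data known. Text names the 6 genes, Tdg, other Pramel genes of at least 1 RPKM in a sorted group, list genes called, and the 3 nearest profiles of each gene; other genes named were chosen after their values were seen. Of the 6 genes 4 matched a RefSeq promoter. No pair of libraries of a group was within sampling noise. Intervals and floors cover counting error only.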

Additional observations from a re-analysis of the deposited data

Results flagged for a closer look

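Pramel6 was flagged because its siTdg libraries all lay on opposite sides of the siC libraries in sorted and unsorted cells. The ratio of siTdg to siC means was 1.58 in sorted G2M and 1.75 in sorted G1, against 0.861 at 48 h and 0.748 at 96 h in unsorted cells. The difference between these settings was not tested, since the tables were scaled separately. The gene model of Pramel6 also differs in length between 48 h and sorted cells. Tdg was low in siTdg cells in the sorted libraries and at 48 h, and overlapped between siRNAs at 96 h.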

How the results depend on the processing

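Over the alternatives tried, the log2 differences of the 6 genes between siTdg and siC in sorted cells ranged from 0.31 to 1.27, with their direction fixed by how the genes were chosen. Counts of called genes moved with 3 settings. With no filter on low genes they were 4 in G2M, 6 in G1, 8 averaged over phases, 7 for the interaction and 4 at 96 h. Fitting the 4 libraries of a table alone gave 0 calls between phases in siTdg and 3 in siC.

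Replicate numbers are only 2 per group and are not said to mark a shared culture, so whether they pair the libraries is not known. The main fits took no account of them, so a difference shared by same-numbered libraries counted there as spread. Deviations of same-numbered libraries correlated at 0.557 to 0.720 in sorted cells, 0.534 to 0.934 in unsorted ESCs and 0.951 in EBs. With a replicate block 3 genes were called in G2M, 2 in G1, 148 averaged over phases (114 higher, 34 lower), 985 between phases in siTdg, 614 in siC and 150 in EBs. Of the 23 other 2-cell-like genes it called 17 higher in siTdg averaged over phases, and 5 of the 9 other Pramel genes, and it called 2 of the 22 regulators, Lin28a and Zmym2, lower. It called 13 of the 23 lower in G2M in siTdg and 11 in siC.

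Leaving out 1 library gave 0 to 1 calls in G2M and in G1, 0 to 8 between phases in siTdg, 0 to 17 in siC and 0 to 1 in EBs. In sorted cells, Pramel7 turned sign between phases, within -0.22 to 0.46 in siTdg and -0.15 to 0.068 in siC. The gap between phases in the siTdg difference turned sign for Pramel7 (-0.18 to 0.50), Pramel31 (-0.059 to 0.27), Tdpoz3 (-0.34 to 0.00098) and Gm8300 (-0.26 to 0.59). In tested comparisons, signs turned for Gm8300 and Pramel7 in unsorted cells and for Gm8300 in EBs, never past the threshold. Gm8300 at 96 h was 0.038 with a pseudocount of 0.1, 0.011 with quantile normalization and 0.069 with limma-voom. Leaving out 1 library, Gm8300 ranged from -0.85 to 1.31 at 48 h, -1.03 to 1.03 at 96 h and -0.27 to 0.59 in EBs, and Pramel7 from -0.91 to 0.22 at 48 h and -0.95 to 0.19 at 96 h.

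With 2 libraries per group, only 20 of 100 simulated 2-fold changes were called at 48 h (12190 genes). The changed genes were drawn from higher levels, so this share does not cover genes near the filter. The tables do not say how reads shared by near-identical copies were counted.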
